A study of Mus musculus with 4 samples.

Results

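The 7 integrin chains described here, Itga4, Itgb1, Itgb7, Itgae, Itgal, Itgb2 and Itga6, were chosen by name and read from both deposited expression tables by cluster and library. They are 7 of the 22056 genes in each table, all 7 were present, and all 7 passed the minimum of 20 CPM (UMIs of a gene scaled to a library total of 1000000) in at least 1 library. The study profiled regulatory T cells (Treg) of C57BL/6 mice by 10x Genomics 3' single-cell RNA sequencing, sorted as live CD4+ TCRβ+ YFP+ cells. Its 4 libraries are the cervical draining lymph nodes (LN) of ICOS FC mice, labelled ICOS-deficient, on day 1 after oxazolone, a contact sensitiser; the LN of ICOS WT mice on the same day; the spleen of ICOS FC mice at steady state; and the spleen of ICOS WT mice at steady state. Each group is 1 library, the sources used here do not say how many mice entered each, and the labels do not say which gene drives the YFP. With 1 library per group no test between groups is possible: the intervals given are 95% intervals for counting error only, and differences are named by size. LN and spleen also differ in challenge, so tissue and oxazolone cannot be told apart.

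Integrins are surface receptors made of 1 alpha and 1 beta chain, and the partner decides the ligand. Itga4 pairs with Itgb1 (VLA-4, which binds VCAM-1 and fibronectin) or with Itgb7 (which binds MAdCAM-1 on gut venules); Itgae (CD103) pairs with Itgb7 and binds E-cadherin on epithelium; Itgal pairs with Itgb2 (LFA-1, which binds ICAMs); and Itga6 pairs with Itgb1 to bind laminin in lymphocytes. In T cells Itgae is known as a gene induced by TGF-beta and as a marker of effector Treg that live near epithelia.

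The genes lie on 6 chromosomes of the mouse build GRCm38 (GENCODE M21): Itga4 on chr2:79255426-79333123, Itga6 on chr2:71745616-71858416, Itgb1 on chr8:128685654-128733200, Itgae on chr11:73090583-73147446, Itgal on chr7:127296260-127335138 and Itgb2 on chr10:77530252-77565708, all on the plus strand, and Itgb7 on chr15:102215995-102231944 on the minus strand. On the other strand, Cerkl overlaps Itga4 and was counted at 2.26 to 4.49 CPM, and Haspin overlaps Itgae and was counted at 5.91 to 8.24 CPM. Itga6 overlaps 4 predicted genes that were not analysed here. RefSeq promoter windows, from 250 bases before to 50 bases after the gene start, matched 3 of the 7 chains. They are Itga4 and its 2 beta partners, Itgb1 and Itgb7, shown because no window was found for the other chains. The windows are chr2:79255176-79255475 (plus strand), chr8:128685404-128685703 (plus strand) and chr15:102231886-102232185 (minus strand) of GRCm38.p6, written 5′ to 3′ with motif matches in capitals.
Itga4: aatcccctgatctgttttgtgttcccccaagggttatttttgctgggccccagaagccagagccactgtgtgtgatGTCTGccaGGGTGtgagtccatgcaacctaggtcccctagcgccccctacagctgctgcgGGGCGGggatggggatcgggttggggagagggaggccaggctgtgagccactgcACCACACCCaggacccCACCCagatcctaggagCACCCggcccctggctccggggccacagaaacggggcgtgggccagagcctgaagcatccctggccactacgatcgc
Itgb1: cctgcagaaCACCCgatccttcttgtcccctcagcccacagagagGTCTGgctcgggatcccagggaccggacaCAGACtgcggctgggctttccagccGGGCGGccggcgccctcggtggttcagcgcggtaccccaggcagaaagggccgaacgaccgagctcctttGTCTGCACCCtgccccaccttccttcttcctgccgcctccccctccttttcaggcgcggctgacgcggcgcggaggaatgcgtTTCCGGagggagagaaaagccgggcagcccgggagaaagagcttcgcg
Itgb7: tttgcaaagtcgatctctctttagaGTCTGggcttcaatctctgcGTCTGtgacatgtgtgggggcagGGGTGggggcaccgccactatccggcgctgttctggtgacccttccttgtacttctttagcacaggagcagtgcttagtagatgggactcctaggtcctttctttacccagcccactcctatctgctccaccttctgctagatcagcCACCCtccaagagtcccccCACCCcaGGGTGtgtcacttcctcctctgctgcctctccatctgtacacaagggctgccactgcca
Capitals mark, on either strand, a GC box (GGGCGG), a KLF-type CACCC, an ETS-type core (CCGGAA), a RUNX match (TGTGGT), an AP-1 match (TGACTCA) or a SMAD-type GTCTG. The Itga4 window held 1 GC box, 4 CACCC, 1 RUNX and 1 SMAD-type match, of which the RUNX match and 1 CACCC overlap. The Itgb1 window held 1 GC box, 2 CACCC, 1 ETS-type and 3 SMAD-type matches, and the Itgb7 window 4 CACCC and 2 SMAD-type matches. None of the 3 windows held the AP-1 letters. Such short motifs are common: of 32851 promoter windows of the same length, 35.7% held GGGCGG, 57.5% CACCC, 14.9% CCGGAA, 16.8% TGTGGT, 5.20% TGACTCA and 49.6% GTCTG. A match is a run of letters and says nothing on its own about binding.

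The LN libraries held 2066 cells (ICOS FC) and 1897 cells (ICOS WT) with 17330489 and 15045805 UMIs, and the spleen libraries 5917 cells (ICOS FC) and 4995 cells (ICOS WT) with 28256866 and 27183614 UMIs. Median depth per cell was 6789 and 6591 UMIs in LN and 4361 and 5044 UMIs in spleen. A gene with no UMI could be present at up to 0.106 to 0.199 CPM (3 counts over the library total). Foxp3, the lineage factor of Treg, was counted at 70.7 and 72.2 CPM in LN and 59.0 and 53.2 CPM in spleen (ICOS FC, ICOS WT). Icos itself was higher in the libraries labelled ICOS FC, at 928 against 599 CPM in LN and 258 against 112 CPM in spleen; reads at the 3' end need not cross a deleted part, so these counts do not check the labels. The LN libraries labelled ICOS FC and ICOS WT shared 30 cell barcodes and other library pairs 1 to 10; without these cells none of the log2 ratios of the 7 chains over whole libraries changed sign, and cluster values were not recomputed. Markers of other cells were low but not even: the summed level of 8 B cell genes was 208 CPM in LN ICOS FC, 173 CPM in LN ICOS WT, 79.4 CPM in spleen ICOS FC and 77.9 CPM in spleen ICOS WT, and that of 9 CD8 T and NK genes was 84.3, 180, 58.9 and 78.2 CPM in the same order. The 8 genes of dividing cells summed to 542, 332, 82.0 and 65.0 CPM in that order.

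Between tissues, 2 chains stood out under both labels. Itgae was higher in LN and Itga4 was lower in LN. Itgae had 123 CPM in LN ICOS FC and 16.2 CPM in spleen ICOS FC, and 103 CPM in LN ICOS WT against 13.1 CPM in spleen ICOS WT. The LN over spleen ratio was 7.59-fold under ICOS FC (log2 2.92, interval 2.78 to 3.07) and 7.87-fold under ICOS WT (2.98, 2.81 to 3.15). Both LN libraries lay far above both spleen libraries. Itga4, the alpha-4 chain, had 87.4 CPM in LN ICOS FC and 232 CPM in spleen ICOS FC, and 67.0 CPM in LN ICOS WT against 210 CPM in spleen ICOS WT. Its log2 ratio was -1.41 (-1.49 to -1.33) under ICOS FC and -1.65 (-1.75 to -1.55) under ICOS WT. Both LN libraries lay well below both spleen libraries.

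These were the 2 of 7 chains past 2-fold under both labels, 1 in each direction. Over 5327 genes with at least 20 CPM, 4.36% were that much higher in LN and 0.282% that much lower. The median log2 ratio of all genes was 0.13 under each label, and scaling by TMM factors lowered every LN over spleen value by 0.14 and 0.15. With every cell thinned to 2000 UMIs the Itga4 ratio under ICOS FC was -0.999 and just missed the 2-fold line, which left 1 chain; under ICOS WT it was -1.41.

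The LFA-1 chains were modestly higher in LN. Itgal had 124 CPM in LN ICOS FC and 97.1 CPM in spleen ICOS FC (log2 0.35, 0.27 to 0.43), and 162 CPM in LN ICOS WT against 103 CPM in spleen ICOS WT (0.66, 0.58 to 0.74). Itgb2 had 146 CPM in LN ICOS FC and 121 CPM in spleen ICOS FC (0.26), and 169 CPM in LN ICOS WT against 136 CPM in spleen ICOS WT (0.32). The laminin receptor chain Itga6 went the other way, with 75.6 CPM in LN ICOS FC and 93.4 CPM in spleen ICOS FC (-0.31), and 69.1 CPM in LN ICOS WT against 91.3 CPM in spleen ICOS WT (-0.40). The Itga6 difference shrank where cells weighed equally: as a mean over cells it was -0.06 and -0.05, and thinned to 2000 UMIs -0.21 (-0.38 to -0.03) and -0.02 (-0.21 to 0.17), so only 1 of these 4 intervals was clear of equality. For Itgal under ICOS FC the ratio was 0.04 (-0.11 to 0.18) in cells with a Foxp3 UMI.

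The beta chains of the alpha-4 receptors differed little between tissues. Itgb1 had 275 CPM in LN ICOS FC and 248 CPM in spleen ICOS FC, and 207 CPM in LN ICOS WT against 189 CPM in spleen ICOS WT, log2 ratios of 0.15 and 0.14. Itgb7 had 320 CPM in LN ICOS FC and 295 CPM in spleen ICOS FC, and 371 CPM in LN ICOS WT against 318 CPM in spleen ICOS WT, log2 ratios of 0.12 and 0.22. These are close to the all-gene median, and scalings that lowered the all-gene value by 0.12 to 0.18 also took some of them just below 0. Apart from scaling, Itgb1 came to -0.02 (ICOS FC) and -0.09 (ICOS WT) without spleen cluster 4 and LN clusters 6 and 7, and to -0.09 under ICOS FC in cells with a Foxp3 UMI, so its direction depended on which cells were counted. Itga4, which can pair with either, differed by far more between the tissues than both partners.

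**Figure D1:**
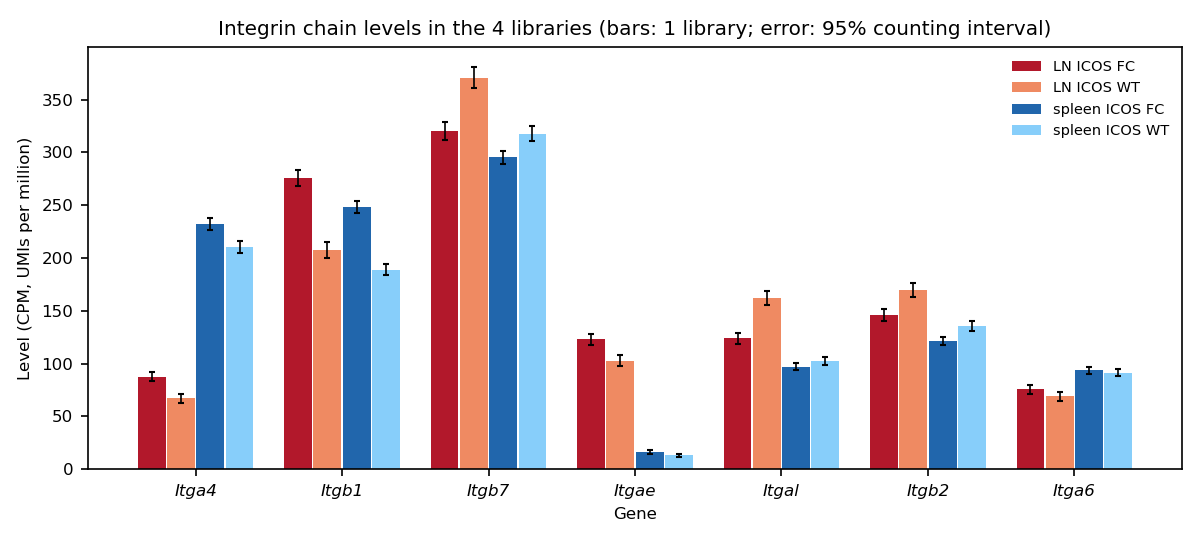
Level of each integrin chain (vertical axis, CPM) in the 4 libraries; each bar is 1 library and each error bar a 95% counting interval. Itgae stands at 123 and 103 CPM in LN against 16.2 and 13.1 CPM in spleen, Itga4 at 87.4 and 67.0 CPM in LN against 232 and 210 CPM in spleen, and Itgb1 is higher in the ICOS FC-labelled library in both tissues. Bars of different genes are not to be compared, since tags at the 3' end are not corrected for how well each transcript is caught.

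Between the labels, the 7 chains moved by small amounts, and 0 of 7 passed 1.5-fold in either tissue. Of all 5506 genes compared in LN, 1.11% passed upward and 1.05% downward; of 5105 in spleen, 0.588% passed upward and 0.255% downward (ICOS FC over ICOS WT). Of the 7, 3 chains had ratios above equality in both tissues, Itgb1, Itga4 and Itgae, and 3 had ratios below it in both, Itgb7, Itgal and Itgb2. In LN, 4 chains had an interval wholly above equality and 3 wholly below, where 20.4% and 27.7% of all genes did. In spleen the counts were 3 and 3, where 15.3% and 23.1% of all genes did, and Itga6 was not separable from equality (0.03, -0.05 to 0.11), though it was once cells were thinned to 2000 UMIs (0.22, 0.09 to 0.35). At these depths an interval clear of equality is common among all genes, so it describes precision and not size. The 2 tissues share no library.

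Itgb1, the common beta chain, had near-equal ratios in both tissues. It had 275 CPM in LN ICOS FC against 207 CPM in LN ICOS WT (log2 0.41, 0.35 to 0.48), and 248 CPM in spleen ICOS FC against 189 CPM in spleen ICOS WT (0.40, 0.35 to 0.45). It was the 1 chain with a log2 ratio of 0.32 or more in both tissues, as 37 of 4949 genes had (0.748%). Across alternatives its log2 ratio ran between 0.40 and 0.48 in LN and between 0.34 and 0.66 in spleen. The highest spleen value, 0.66, came from cells with a Foxp3 UMI and passed 1.5-fold there. Thinned to 2000 UMIs, 32.7% of LN ICOS FC cells had an Itgb1 UMI against 27.1% of LN ICOS WT cells, and 25.7% of spleen ICOS FC cells against 22.2% of spleen ICOS WT cells. No cluster here is known to lack Itgb1; its lowest thinned share in spleen, in cluster 4, was 5.21% (ICOS FC) and 4.63% (ICOS WT). Unthinned shares over all cells were 55.5% against 48.7% in LN and 36.2% against 34.7% in spleen. Cells with 3 or more Itgb1 UMIs after thinning made up 5.98% of LN ICOS FC against 3.56% of LN ICOS WT, and 6.28% of spleen ICOS FC against 4.69% of spleen ICOS WT.

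Its alpha partner Itga4 was higher in the ICOS FC-labelled library in LN, at 87.4 against 67.0 CPM (log2 0.38, 0.27 to 0.50), and by less in spleen, at 232 against 210 CPM (0.14, 0.09 to 0.19). The share of thinned cells with an Itga4 UMI was 16.5% against 12.7% in LN and 31.4% against 30.2% in spleen, and the spleen intervals overlapped. Without thinning these shares were 32.4% against 26.9% in LN and 50.3% against 51.3% in spleen, so the spleen order turned round with depth. Itgae had 123 against 103 CPM in LN (0.26, 0.16 to 0.35) and 16.2 against 13.1 CPM in spleen (0.31, 0.11 to 0.52). Thinned, its LN ratio was 0.08 and its LN share of cells 15.9% against 15.2%, within counting error. Unthinned, its share was 32.4% against 26.6% in LN.

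Itgal, the alpha chain of LFA-1, was lower in the ICOS FC-labelled LN library, at 124 against 162 CPM (log2 -0.39, -0.48 to -0.31), and close to equal in spleen, at 97.1 against 103 CPM (-0.08). The LN value was -0.16 with clusters weighted equally and -0.20 as a mean over cells. Its partner Itgb2 had 146 against 169 CPM in LN (-0.22) and 121 against 136 CPM in spleen (-0.16). Itgb7 had 320 against 371 CPM in LN (-0.21) and 295 against 318 CPM in spleen (-0.11). Itga6 had 75.6 against 69.1 CPM in LN (0.13) and 93.4 against 91.3 CPM in spleen (0.03). At a lower line, a log2 ratio of 0.32, LN held 2 chains higher (Itga4 and Itgb1, where 5.09% of genes were) and 1 lower (Itgal, where 6.57% were). Spleen then held 1 higher (Itgb1, where 1.94% were) and 0 lower (1.61%).

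The deposited clusters were named from marker genes, and a cluster with no clear match was left unnamed. In LN, cluster 0 was effector Treg-like, 1 resting Treg-like, 2 follicular Treg-like and 5 interferon response-like. LN clusters 3 (Gbp2b, Bcl2, Gpr83), 4 (Shmt1, Hk2, Srm), 6 (few UMIs, led by MHC class II genes such as H2-Eb1) and 7 (led by Egr3 together with Cd8a and Klrd1) stayed unnamed. In spleen, cluster 1 was follicular Treg-like, 2 effector Treg-like, 3 resting Treg-like, 5 TCR-activated-like and 6 interferon response-like. Spleen clusters 0 (Gata1, Gpr83, Bcl2) and 4 (low in Foxp3, led by Pdlim4 and Klrd1) stayed unnamed. Measured effector genes had a median log2 level over the other clusters of 1.80 in spleen cluster 1 and 0.86 in spleen cluster 2. They therefore did not single out cluster 2. For follicular genes the medians were 2.69 and 0.28. Resting genes had medians of 1.01 in LN cluster 1, 1.03 in LN cluster 6 and 0.88 in LN cluster 5. In spleen their medians were 0.70 in cluster 3 and 0.66 in cluster 4. The resting genes therefore did not single out LN cluster 1 or spleen cluster 3. Effector genes lay at -1.41 in LN cluster 2, so clusters of the same name need not hold like cells. Spleen cluster 6 held 47 ICOS WT cells, under the minimum of 50, and is left out of ratios. Cluster makeup differed by label: LN cluster 2 held 10.7% of ICOS FC and 20.6% of ICOS WT cells, and LN cluster 3 held 14.2% and 7.22%. Ratios between labels over whole libraries can therefore carry makeup as well as level within clusters, and the part of each was not tested. Since the clusters were made from these cells, levels by cluster are a description.

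Of the 7 chains, Itgae had the largest measured ratio of highest over lowest cluster in both tissues. It had 268 CPM (ICOS FC) and 247 CPM (ICOS WT) in LN cluster 0, effector Treg-like, and 7.84 and 4.49 CPM in LN cluster 1, resting Treg-like. In spleen it had 44.0 and 51.6 CPM in the effector Treg-like cluster 2 and 0.91 and 1.69 CPM in cluster 4. Highest over lowest, with both libraries averaged, the spread was 41.8-fold in LN and 36.8-fold in spleen. The lowest levels rest on 22 and 13 UMIs in LN cluster 1 and on 3 and 7 UMIs in spleen cluster 4 (ICOS FC, ICOS WT). The size of these spreads, above all in spleen, is therefore uncertain. With each cell thinned to 2000 UMIs, 33.5% (ICOS FC) and 36.4% (ICOS WT) of the cells of LN cluster 0 had an Itgae UMI, against 1.70% and 0.96% in LN cluster 1. In spleen the shares were 7.10% and 7.23% in cluster 2 and 7.68% and 2.87% in cluster 1, against 0.153% and 0.136% in cluster 4. No cluster here is known to lack Itgae, and the part of free RNA in these levels was not tested.

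In spleen Itgb1 ran in almost the same order of clusters, with both chains highest in cluster 2 and lowest in cluster 4, while in LN their orders differed. In spleen it had 807 CPM (ICOS FC) and 686 CPM (ICOS WT) in cluster 2, effector Treg-like, and 429 and 288 CPM in cluster 1, follicular Treg-like. It had 25.8 and 29.9 CPM in cluster 4, a 26.8-fold spread. In LN its highest level was in cluster 2, follicular Treg-like, the fifth of the clusters by Itgae, at 514 and 316 CPM, next to cluster 0 at 468 and 347 CPM, and its lowest in cluster 5, interferon response-like, at 44.8 and 46.4 CPM. The means of LN clusters 2 and 0 lay close together, and their order differed by label. Over the cluster sums of a tissue, the log2(CPM + 1) levels of Itgae and Itgb1 had a Pearson r of 0.94 in spleen (13 sums) and 0.92 in LN (16 sums); sums of a library share their depth and makeup, so this is a description.

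Itga4 and Itga6 had another pattern, with their low point in LN cluster 4, the cells of most UMIs (median 12166 and 13389). That cluster was also the lowest LN cluster of Itgb7, at 148 CPM with both libraries averaged. Itga4 spread 23.0-fold over the LN clusters and Itga6 11.9-fold. The highest cluster of both was LN cluster 6, whose cells hold few UMIs, at 265 and 233 CPM. In LN cluster 4 Itga4 had 15.7 CPM (ICOS FC, on 56 UMIs) and 7.34 CPM (ICOS WT, on 17 UMIs). It had 135 and 121 CPM in the follicular Treg-like LN cluster 2. Itga6 had 24.4 and 14.7 CPM in LN cluster 4, and 104 and 121 CPM in the resting Treg-like LN cluster 1. The 2 alpha chains had an r of 0.90 over the LN sums but of 0.23 over the spleen sums. In spleen Itga4 peaked in cluster 2, effector Treg-like, at 417 and 351 CPM, whereas Itga6 was highest in cluster 3, resting Treg-like, at 123 and 121 CPM. Its neighbour in that order, cluster 0, had 112 and 120 CPM and did not differ from it beyond counting error.

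The other 3 chains were more even. Itgb7 was highest among spleen clusters in cluster 2 (502 and 565 CPM) and had 502 and 601 CPM in LN cluster 0, so both effector Treg-like clusters were high; its spread was 3.52-fold in spleen and 3.79-fold in LN. Itgal peaked in the follicular Treg-like spleen cluster 1 (173 and 216 CPM), and in LN cluster 6 (367 and 282 CPM), whose cells hold few UMIs (median 1788 and 2022), with the follicular Treg-like cluster 2 next (195 and 231 CPM). Itgb2 had the narrowest range, 1.61-fold in spleen and 2.67-fold in LN. LN cluster 6 had the highest LN level of 5 chains, Itga4, Itgb7, Itgal, Itgb2 and Itga6; the part of its low depth in this was not tested. The levels of Itgal and Itgb2 over all 29 sums had an r of 0.83.

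**Figure D2:**
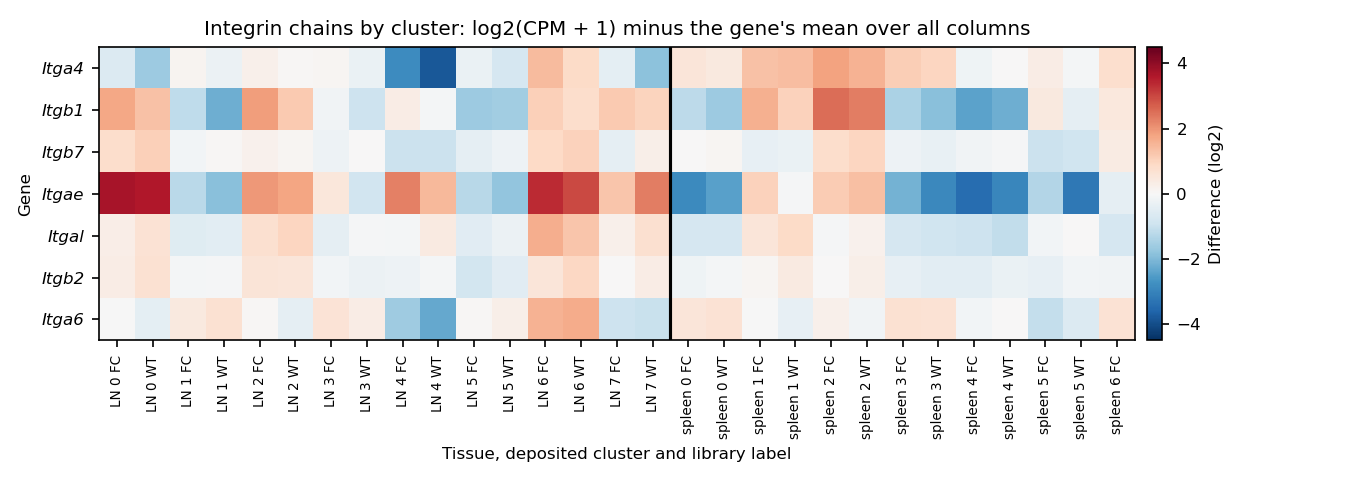
Level of each chain (rows) in each tissue, cluster and library with at least 50 cells (columns), as log2(CPM + 1) minus the mean of that gene over all columns; red is above and blue below that mean. Itgae and Itgb1 are red in the effector Treg-like columns (LN 0, spleen 2) and in the follicular Treg-like LN 2, and Itga4 is darkest blue in LN 4, where it had 15.7 and 7.34 CPM.

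The tissue difference of Itga4 and Itgae was also present within clusters given the same name. In effector Treg-like cells (LN cluster 0, spleen cluster 2), Itga4 had 76.2 CPM in LN ICOS FC and 417 CPM in spleen ICOS FC, and 36.5 CPM in LN ICOS WT against 351 CPM in spleen ICOS WT. The log2 ratios were -2.45 (-2.61 to -2.30) and -3.26 (-3.50 to -3.03). In follicular Treg-like cells they were -1.10 and -1.36, and in resting Treg-like cells -1.01 and -1.24. Itga4 was thus lower in LN in each of the 3 named pairs, by most in the effector Treg-like pair. The median of all genes in these pairs lay between -0.06 and 0.07. The size in the resting pair depends on the match chosen. Unnamed spleen cluster 0 shares Gata1 and Bcl2 among its leading genes with LN cluster 1, and had 169 and 160 CPM of Itga4 (ICOS FC, ICOS WT). LN cluster 1 had 127 and 97.4 CPM, and spleen cluster 3 had 256 and 230 CPM.

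Itgae had log2 ratios of 2.61 (ICOS FC) and 2.26 (ICOS WT) in effector Treg-like cells, where it had 268 CPM in LN and 44.0 CPM in spleen (ICOS FC), and 247 CPM in LN and 51.6 CPM in spleen (ICOS WT). In follicular Treg-like cells the ratios were 0.93 (0.59 to 1.26) and 1.89 (1.49 to 2.29), and in resting Treg-like cells 1.09 and 1.38 on 22 LN and 13 spleen UMIs (ICOS FC) and 13 LN and 4 spleen UMIs (ICOS WT), with an interval that reached below equality under ICOS WT. Itgb1, near equal between the whole libraries, was lower in LN in effector Treg-like cells (-0.79 and -0.99). It was near equal in follicular Treg-like cells (0.26 and 0.14). Itgb7 was equal in effector Treg-like cells (0.00 and 0.09) and somewhat higher in LN in follicular Treg-like cells (0.54 and 0.39).

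**Figure D3:**
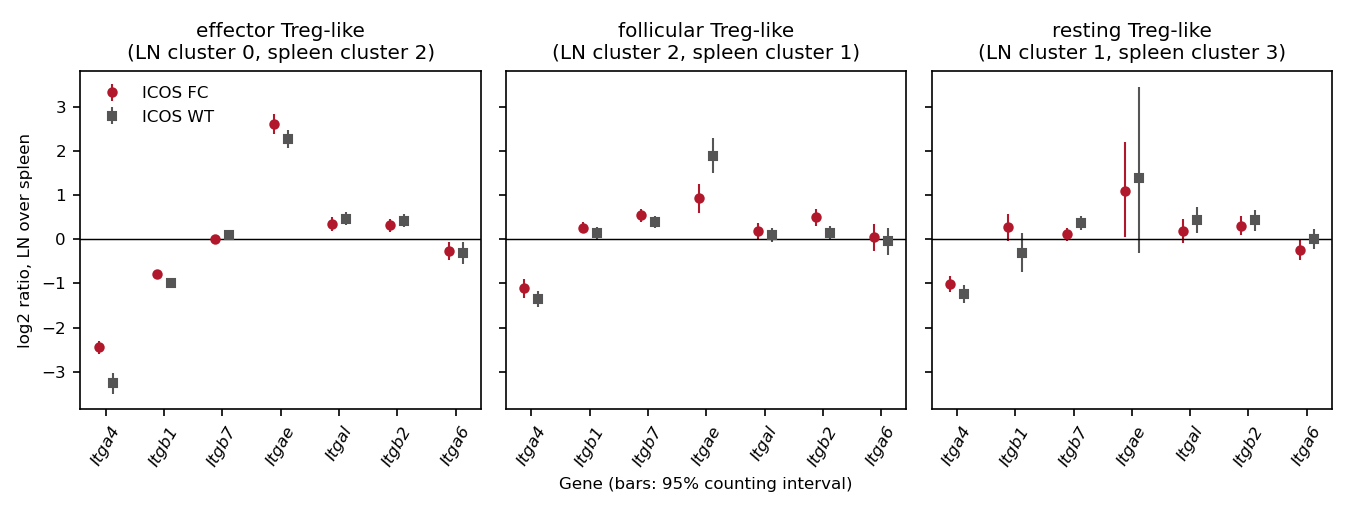
Ratio of LN over spleen (log2, vertical axis) for each chain within clusters of the same name, for the ICOS FC libraries (circles) and the ICOS WT libraries (squares), with 95% counting intervals. Itga4 lies below 0 in all 3 panels and reaches -2.45 and -3.26 in the effector Treg-like clusters, where Itgae lies at 2.61 and 2.26.

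Within clusters, Itgb1 was higher in the ICOS FC-labelled library in 7 of 8 LN clusters and 5 of 6 spleen clusters, with the interval above equality in 5 of each and below it in none. It passed 1.5-fold in LN cluster 1 (62.7 against 30.0 CPM, log2 1.06), where 1.24% of genes were that much higher, in LN cluster 2 (514 against 316 CPM, 0.70; 3.49%), in LN cluster 3 (124 against 72.0 CPM, 0.78; 5.03%) and in spleen cluster 5 (189 against 105 CPM, 0.84; 2.5%). Thinned to 2000 UMIs per cell, it had 110 against 82.0 CPM in LN cluster 3 and no longer passed there. In the effector Treg-like clusters the ratio was smaller, 0.43 in LN cluster 0 (468 against 347 CPM) and 0.23 in spleen cluster 2 (807 against 686 CPM). LN cluster 5 (-0.05) and spleen cluster 4 (-0.21) were the exceptions in sign, and both intervals spanned equality. With the clusters weighted equally, the ratio of Itgb1 stayed above equality in both tissues.

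Itga4 was higher in the ICOS FC-labelled library in 8 of 8 LN clusters, with the interval above equality in 5. It passed 1.5-fold in LN cluster 0, effector Treg-like (76.2 against 36.5 CPM, log2 1.06, 0.80 to 1.33), where 1.79% of genes were that much higher, and in LN cluster 7 (86.0 against 31.7 CPM on 42 and 18 UMIs; 3.73%). In spleen 4 of 6 clusters were above equality, between -0.21 and 0.44. LN cluster 4 had a log2 ratio of 1.10, yet its level was under the 20 CPM minimum. Itga6 passed 1.5-fold in LN cluster 4 (24.4 against 14.7 CPM, 0.73; 2.94%).

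Itgae had ratios on both sides of equality, with its interval above equality in 3 LN and 2 spleen clusters. It had an interval below equality in LN cluster 7 alone. It was higher in the ICOS FC-labelled library in the follicular Treg-like spleen cluster 1 (40.9 against 18.4 CPM, log2 1.15, 0.77 to 1.55), where 1.56% of genes were that much higher, in LN cluster 3 (28.3 against 10.3 CPM, 1.46; 5.03%) and in LN cluster 4 (96.4 against 54.4 CPM, 0.83; 2.94%). It was lower in LN cluster 7 (47.1 against 100 CPM, -1.09, -1.86 to -0.37), where 6.04% of genes were that much lower. Thinned to 2000 UMIs per cell, its levels were 89.3 against 98.5 CPM in LN cluster 7 and 17.2 against 11.7 CPM in LN cluster 3, both under 1.5-fold, so these 2 calls were lost. In the effector Treg-like clusters, where its mean level was highest in each tissue, it was near equal: 0.12 in LN cluster 0 and -0.23 (-0.51 to 0.05) in spleen cluster 2. Itgb7 was also lower in LN cluster 7 (219 against 350 CPM, -0.68; 6.04%), though not past 1.5-fold once thinned (295 against 409 CPM). LN cluster 7 held 57 and 66 cells and high levels of CD8 T and NK genes, which were themselves uneven between the libraries; their part in its values was not tested.

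Itgal was lower in the ICOS FC-labelled library in 7 of 8 LN clusters, with the interval below equality in 5 and above it in none. Its lowest ratio was -0.49 in LN cluster 7, next to -0.48 in LN cluster 4 (112 against 157 CPM), and LN cluster 6 had 0.38 with an interval spanning equality. In spleen it was below equality in clusters 1 (-0.32) and 2 (-0.23), with intervals clear of it. Itgb2 had the same 2 spleen clusters below equality (-0.31 and -0.24) and LN cluster 0 (-0.35), so both LFA-1 chains were lower in these 3 clusters. Elsewhere the Itgal and Itgb2 ratios had opposite signs in LN clusters 2, 3 and 6 and in spleen clusters 0 and 4. In each of these, 1 or both of the intervals spanned equality. In LN cluster 3 the ratios were -0.34 for Itgal and 0.15 (-0.15 to 0.47) for Itgb2. These signs therefore do not show the 2 chains moving apart.

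**Figure D4:**
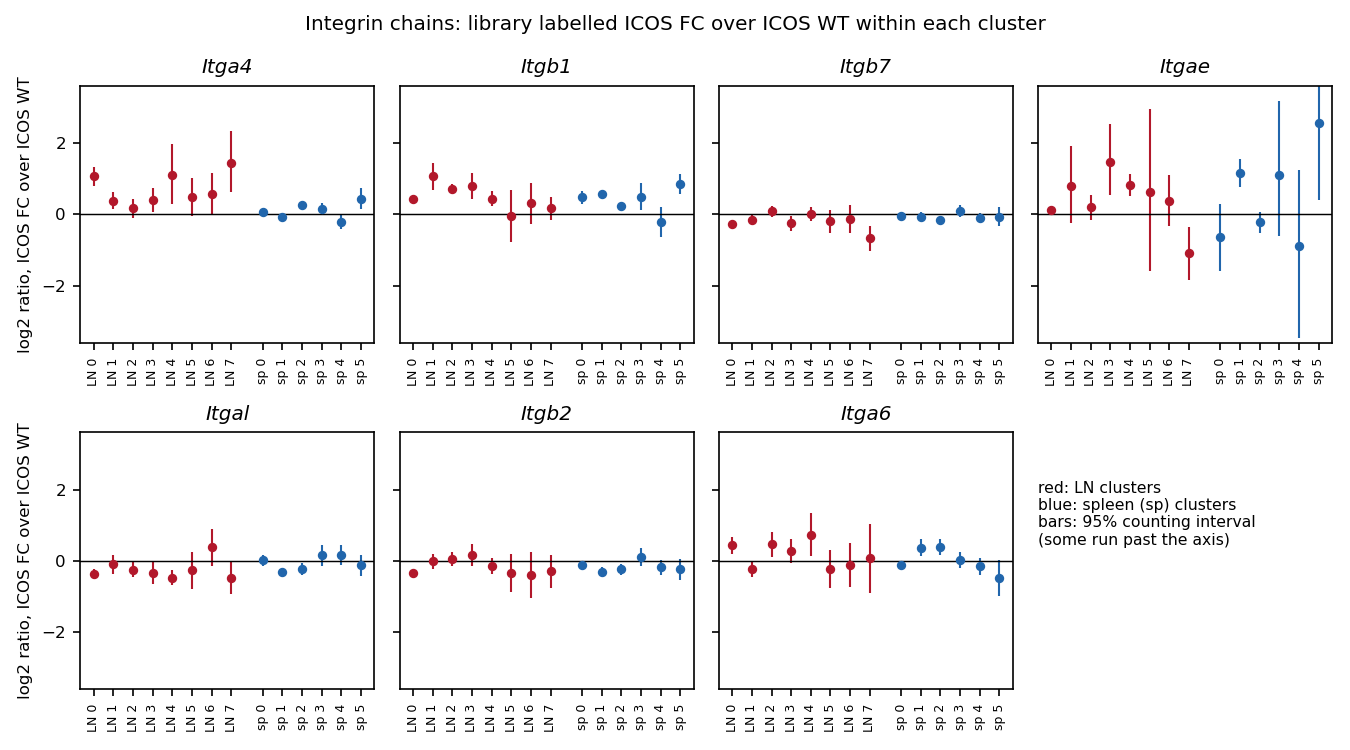
Ratio of the ICOS FC-labelled over the ICOS WT-labelled library (log2, vertical axis) for each chain in each LN cluster (red) and spleen cluster (blue) with at least 50 cells of each library; bars are 95% counting intervals. Itgb1 lies above 0 in 7 of 8 LN and 5 of 6 spleen clusters, Itga4 in all 8 LN clusters, and Itgae ranges from -1.09 in LN 7 to 2.56 in spleen 5, which rests on 12 and 2 UMIs.

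The pairing of chains was read in single cells, each thinned to 2000 UMIs. Of LN ICOS FC cells with an Itgae UMI, 62.1% (56.5 to 67.4) also had an Itgb7 UMI, against 42.4% (40.0 to 44.8) of the cells without. In LN ICOS WT the shares were 62.2% against 46.3%, in spleen ICOS FC 55.3% against 43.0% and in spleen ICOS WT 67.0% against 44.3%. Itgb7 was thus found more often beside Itgae in each library, with intervals that did not overlap at this depth. Thinned to 1000 UMIs the order was the same in each library, but the intervals stayed apart in LN ICOS FC alone (36.8% against 26.4%). Within LN cluster 0 the gap was smaller: 68.3% against 57.3% for ICOS FC and 64.4% against 62.8% for ICOS WT, with overlapping intervals in both. In the effector Treg-like spleen cluster 2 the shares were 70.3% against 57.8% (ICOS FC) and 71.0% against 64.9% (ICOS WT), with overlapping intervals. In the follicular Treg-like spleen cluster 1 they were 48.2% against 35.2% (ICOS FC, overlapping). Under ICOS WT they were 62.5% (40.6 to 81.2) against 33.3% (30.1 to 36.7) there, on 24 cells with Itgae. In LN cluster 4 they were 35.0% against 23.2% (ICOS FC) and 50% against 21.5% (ICOS WT). The LN cluster 4 shares rest on 40 and 14 cells with Itgae, with overlapping intervals.

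Cells with an Itga4 UMI more often had an Itgb1 UMI in spleen, 34.1% against 21.9% in ICOS FC and 28.7% against 19.3% in ICOS WT. In LN the shares were 36.3% against 32.0% and 30.2% against 26.6%, with overlapping intervals. The LN result moved with depth: at 1000 UMIs it was 29.6% (23.3 to 36.5) against 20.04% (18.2 to 21.9) in ICOS FC, without overlap, and 22.4% against 14.2% in ICOS WT, and without thinning the order turned round, at 52.0% against 57.2% and 47.5% against 49.2%. Inside spleen cluster 2 the shares were 65.8% against 65.9% (ICOS FC) and 57.0% against 62.5% (ICOS WT). The excess over all spleen cells is thus not seen within that cluster, where both genes are high. In the follicular Treg-like spleen cluster 1 it was 51.7% against 43.6% (ICOS FC) and 43.3% against 35.2% (ICOS WT), with overlapping intervals. The effector Treg-like LN cluster 0 had a wider gap, 60.4% against 48.1% (ICOS FC) and 59.5% against 40.2% (ICOS WT). It rests on 91 and 37 cells with Itga4, and the intervals overlapped there too. For Itga4 and Itgb7 the shares were close in all 4 libraries, with overlapping intervals, for example 46.5% against 45.3% in LN ICOS FC and 42.9% against 43.6% in spleen ICOS FC.

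The LFA-1 pair was found together more often in LN: 33.1% of LN ICOS FC cells with Itgal had Itgb2, against 24.5% of those without, and 35.0% against 28.2% in LN ICOS WT. In spleen the gaps, 23.6% against 21.0% and 25.3% against 22.5%, were within counting error. At 1000 UMIs the LN intervals overlapped too (18.8% against 15.0% and 19.3% against 16.3%). For Itga6 and Itgb1 the order was the reverse in ICOS WT spleen, 18.7% against 22.8% with intervals that just overlapped (9.37% against 14.4% at 1000 UMIs, without overlap), and near equal in ICOS FC spleen, 25.5% against 25.7%. Shares within clusters were not computed for Itgal with Itgb2, Itga6 with Itgb1 or Itga4 with Itgb7. Sparse counts miss most of the transcripts in a cell, so these shares speak of detection and not of receptors on the surface. Without thinning the Itgae and Itgb7 shares in LN were 89.6% against 74.6% (ICOS FC) and 90.7% against 77.5% (ICOS WT).

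**Figure D5:**
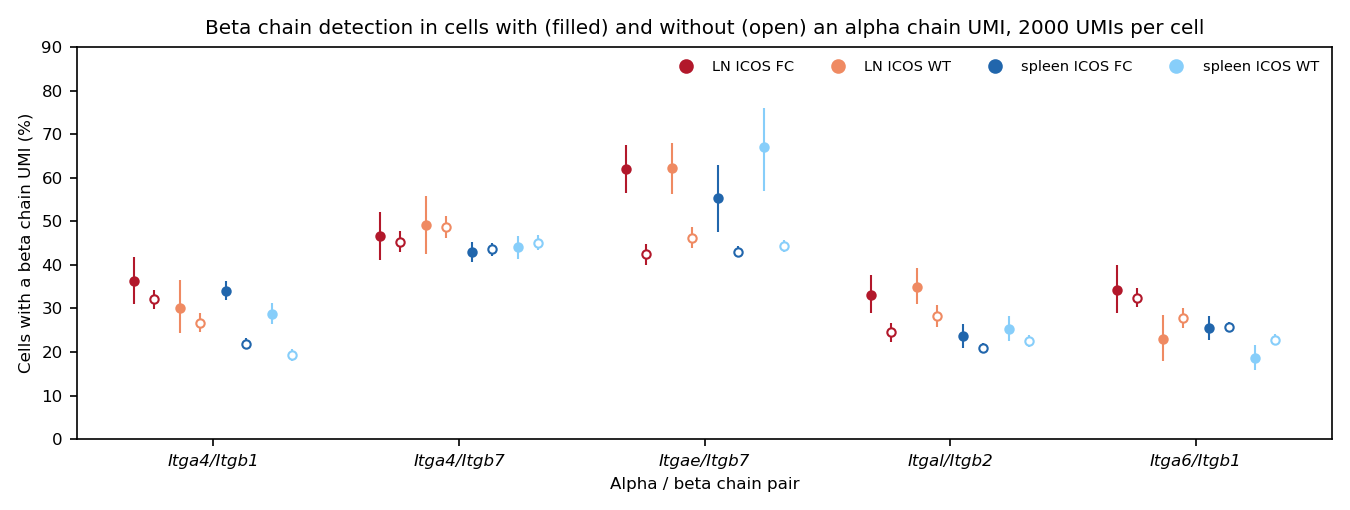
Share of cells with a beta chain UMI (vertical axis, percent) among cells with (filled) and without (open) a UMI of its alpha chain, by pair and library, every cell thinned to 2000 UMIs; bars are 95% intervals. The widest gaps are those of Itgae and Itgb7, such as 62.1% against 42.4% in LN ICOS FC, and the Itga4 and Itgb7 points nearly coincide.

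Of 19 other integrin chains, 4 had at least 5 CPM in a library: Itga2, Itgav, Itgb3 and Itgb8. Itgb3 was lower in the ICOS FC-labelled LN library (14.1 against 22.5 CPM, log2 -0.67), 1 of 4, where of 8694 genes with at least 5 CPM 2.22% were that much lower and 1.93% that much higher. Itgav, which with Itgb8 activates latent TGF-beta, had 23.5 against 25.0 CPM in LN and 24.5 against 23.7 CPM in spleen, within counting error. The myeloid chains Itgam and Itgax stayed at or under 1.26 CPM in every library.

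Genes that switch integrins on or off differed little in size between labels, but most leaned lower in the ICOS FC-labelled libraries. Of 14 measured genes of integrin activation, 0 passed 1.5-fold in either tissue, and their median log2 ratio was -0.18 in LN and -0.08 in spleen, beside -0.03 and -0.02 over all genes with at least 20 CPM. In LN 12 and in spleen 9 of the 14 had intervals below equality, where 27.7% and 23.1% of all genes with at least 20 CPM did. Among them were Fyb (ADAP, an adaptor that recruits the Rap1 machinery), at 366 against 445 CPM in LN, and Rassf5 (RAPL, a Rap1 effector for LFA-1), at 96.8 against 119 CPM. In the adhesion complex 0 of 14 passed, with a median of -0.20 in LN and -0.08 in spleen and the lowest LN values for Actn1 (an actin crosslinker, -0.46), Ptk2b (PYK2 kinase, -0.44) and Zyx (zyxin, -0.44). Of 7 integrin inhibitors, 0 passed, and Sharpin, which holds integrins inactive, had the lowest spleen ratio (30.0 against 36.7 CPM, -0.29).

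Between tissues, the integrin activation genes Apbb1ip (RIAM) and Rasgrp2 (CalDAG-GEFI) were lower in LN without passing 2-fold: Apbb1ip had 140 CPM in LN and 225 CPM in spleen under ICOS FC and 152 against 235 CPM under ICOS WT. Icam1, a ligand of LFA-1, was higher in LN, at 65.7 against 31.6 CPM (ICOS FC, log2 1.06) and 60.7 against 30.2 CPM (ICOS WT, 1.01). The list of ligands had 2 measured members of 10, of which 1 passed, where 5.19% of genes with at least 5 CPM were that much higher in LN; Icam2 had log2 ratios of -0.31 and -0.41. The tetraspanin Cd9, a partner of beta-1 integrins, was lower in LN (41.8 against 92.4 CPM under ICOS FC, and 43.6 against 88.5 CPM under ICOS WT), 1 of 9 measured, where 0.443% of genes were that much lower.

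Among 9 regulators of TGF-beta response and homing, Runx3 and Prdm1 were at least 2-fold higher in LN under both labels, 2 of 9 where 5.19% of genes with at least 5 CPM were. Runx3, a transcription factor known to act on Itgae in CD8 T cells, had 87.5 CPM in LN and 42.5 CPM in spleen (ICOS FC) and 103 against 44.0 CPM (ICOS WT). Prdm1 (Blimp-1, an effector Treg factor) had 49.0 against 16.1 CPM and 34.2 against 8.79 CPM. Klf2, which keeps T cells in circulation, had 460 CPM in LN and 767 CPM in spleen (ICOS FC, log2 -0.74) and 384 against 783 CPM (ICOS WT, -1.03), past 2-fold under ICOS WT alone. Between labels Prdm1 was higher in the ICOS FC-labelled spleen library (16.1 against 8.79 CPM, log2 0.88; 1.07% of 8406 genes with at least 5 CPM were that much higher), and Smad3, a TGF-beta signal carrier, was lower in LN (11.6 against 17.5 CPM, -0.59; 2.22%).

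Homing receptors that act beside integrins differed more. Under both labels Ccr4, Ccr6 and Ccr10 were higher in LN and the gut receptor Ccr9 was lower; Ccr10, a skin homing receptor, had 14.3 CPM in LN and 1.73 CPM in spleen (ICOS FC) and 10.7 against 3.24 CPM (ICOS WT). Of genes with at least 5 CPM, 5.19% were at least 2-fold higher in LN and 0.443% lower under both labels. Ccr9 had 2.65 against 8.32 CPM (ICOS FC) and 1.13 against 6.55 CPM (ICOS WT). Between labels, Gpr15, a gut homing receptor, was lower in the ICOS FC-labelled LN library (2.19 against 6.18 CPM, log2 -1.50). It was 1 of 11 measured in LN, where 2.22% of genes with at least 5 CPM were at least 1.5-fold lower. Ccr6 was lower in spleen (5.73 against 8.98 CPM, -0.65), 1 of 9, where 0.559% of genes were at least 1.5-fold lower.

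The genes whose level over the 29 cluster by library sums was most like that of each chain, of 5306 compared, were found by Pearson r of log2(CPM + 1). For Itgae they were Hcls1, Icos and Vmp1 (0.94 to 0.93), for Itgb1 Cxcr3, Myo1f and Fam129a (0.93) and for Itga4 Gimap6, Rbm4b and Zfp36l2 (0.88). For Itgb7 they were Fli1, Plec and Dock2 (0.90 to 0.87), for Itgal Fnbp1, Apeh and Rtn3 (0.93 to 0.91), for Itgb2 Lbh, Trpv2 and Ptpn7 (0.92 to 0.90), and for Itga6 Pitpnc1, Rere and Atp11b (0.93 to 0.92). All sums come from 4 libraries and share their depth, so the likeness is a description. Icos, among the genes most like Itgae, had 928 and 599 CPM in LN against 258 and 112 CPM in spleen.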

How the data were processed

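The 4 libraries of sorted Treg (10x Genomics 3' chemistry, version 3.1) were analysed as 1 per group, with cells sorted to more than 95% purity per the labels' protocols. GRCm38.p6 and mm10 are named as builds per the submitters' processing notes, with the tools Seurat 3.0, R 3.6.1 and Cell Ranger 4.0.0; their roles and order are not recorded. The deposited expression tables hold the natural log of 1 plus UMIs per 10000, as tested on the values, and the deposited cell tables give each cell's total count, mitochondrial percent, cluster and library. The deposited cells already had at least 500 UMIs and under 10% mitochondrial counts. No source used here says how the authors treated doublets, and no doublet caller was run.

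Whole UMI counts were recovered from the natural log values and the totals: 100% of 17846401 (spleen) and 8798056 (LN) nonzero values came out whole within 0.001. UMIs were summed per library or per library and cluster, divided by all UMIs and given as CPM. Ratios carry exact conditional Poisson 95% intervals, and shares of cells Clopper-Pearson 95% intervals; both cover counting error only. A gene was called by size at 20 CPM or more in a library, an interval clear of equality and at least 1.5-fold between labels, or 2-fold between tissues under both labels; pathway lists used 5 CPM. The edgeR and DESeq2 factors served as alternative scalings, since a count test needs replicates. For shares, each cell was thinned to 2000 UMIs, which left out 59 and 69 LN cells (ICOS FC, ICOS WT) and 155 and 89 spleen cells. The ratio and its interval were run on simulated Poisson counts drawn from the library means and totals. Such counts hold no spread between cells or mice, so this checked the calculation alone.

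All 7 chains are named; of each pathway list, genes past the rule of size and up to 3 more per comparison by the interval bound nearest equality could be named, and 3 genes most like each chain. The members and lists were chosen with earlier results of these data known. Tools were Python 3.11.15, numpy 2.4.6, scipy 1.17.1, pandas 2.3.3, R 4.3.3, edgeR 4.0.16 and DESeq2 1.42.0.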

Additional observations from a re-analysis of the deposited data

How the results depend on the processing

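The count of chains past the rule of size was recomputed under scaling, cell filter, thinning, weighting and threshold alternatives; leaving out the cells of shared barcodes was chosen after seeing the data. It stayed at 0 in LN and 0 in spleen between labels, and at 2 between tissues, with these exceptions. With every cell thinned to 2000 UMIs the count between tissues was 1, because Itga4 under ICOS FC came to -0.999; thinning gives each cell the same weight. In cells with a Foxp3 UMI the spleen count between labels was 1 (Itgb1, 0.66). With a log2 ratio of 0.32 as the line the counts between labels were 3 in LN and 1 in spleen. Scaling lowered the all-gene LN over spleen median by 0.12 to 0.18 on the log2 scale, and this shift alone took Itgb7 (ICOS FC) and Itgb1 just below 0. Itgb1 also changed sign without spleen cluster 4 and LN clusters 6 and 7 (-0.02 and -0.09 under ICOS FC and ICOS WT) and, under ICOS FC, in cells with a Foxp3 UMI (-0.09), and Itga6 between labels in spleen (lowest -0.04); the cause of these was not tested. At 1000 UMIs, pair shares of Itgae with Itgb7 and of Itgal with Itgb2 kept their order in LN with lower shares. No paired analysis was possible because each group is 1 library. With 1 library per group, variation between mice is unknown, and the depth limits Itgae most: 458 and 355 UMIs in spleen.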

Other observations

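Itgae and Itgb1 are not usual partners, yet Itgb1 was detected more often in cells with Itgae over whole libraries; this pair was chosen after its values were seen. Thinned to 2000 UMIs, 45.1% of LN ICOS FC cells with an Itgae UMI had an Itgb1 UMI against 30.4% of those without, and 38.5% against 25.0% in LN ICOS WT. In spleen the shares were 51.8% against 24.9% (ICOS FC) and 54.0% against 21.5% (ICOS WT). Within the effector Treg-like LN cluster 0 the order was the other way, 44.9% against 52.2% (ICOS FC) and 37.7% against 43.8% (ICOS WT), with overlapping intervals. In the effector Treg-like spleen cluster 2 it was 75.0% against 65.1% (ICOS FC) and 69.4% against 59.6% (ICOS WT), also with overlapping intervals.

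The chains differed in how far their UMIs were concentrated in few cells. The 5% of cells with most Itgb1 UMIs held 31.6% of them in LN ICOS FC, 36.4% in LN ICOS WT, 41.5% in spleen ICOS FC and 43.4% in spleen ICOS WT. For Itga4 it was 39.9% in LN ICOS FC and 43.0% in LN ICOS WT, above Itgb1 there, and 29.2% in each spleen library. For Itgb7 the same share lay between 20.4% and 24.1%. For Itgae it was 39.0% and 43.9% in LN ICOS FC and LN ICOS WT. For Itgae in spleen it was 99.8% and 100% in ICOS FC and ICOS WT, since 5.02% and 4.28% of cells had any Itgae UMI.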
